A study of Mus musculus with 10 samples.

Results

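The genes described here are 40 genes of the cell division cycle, from cyclins, replication factors and nucleotide-supply enzymes to mitotic kinases, spindle and centromere proteins. They were taken by gene symbol from a fixed list of names, and all 40 were among the 11617 genes of the deposited table. Their RNA was measured in mouse bone-marrow-derived macrophages in 5 groups of 2 libraries each. The groups were cells given AmTARS for 1 h, AmTARS for 3 h, Pam3CSK4 for 1 h, Pam3CSK4 for 3 h, and untreated control cells, which carried no time label.

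Every group was made from C57BL/6 marrow grown in DMEM with 10% serum and, at 50 ng/ml, the myeloid cytokine GM-CSF. The labels give the mice as 7 weeks old in one field and 6 weeks in another. AmTARS is not spelled out in the labels; in the literature the name stands for a threonyl-tRNA synthetase that Akkermansia muciniphila, a gut bacterium, secretes. Its dose is written as 0.5 with the unit mm. Pam3CSK4 is a synthetic lipopeptide that activates the receptor TLR2, and it was given at 10 ng/ml. The doses therefore could not be matched. The record states that both were compared as ligands of TLR2. Whether libraries with the same label were grown as separate cultures is not stated, so p-values may measure technical spread alone.

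Cells that enter the division cycle first raise D and E type cyclins, whose kinases release the E2F transcription factors from the retinoblastoma protein. E2F then drives genes that license replication origins, copy DNA and supply nucleotides, and a later program bound by the MuvB complex with B-MYB or FOXM1 drives genes of mitosis. Cdkn1a encodes p21, which stops cyclin-dependent kinases. Macrophages grown from marrow with colony-stimulating factors still divide in part, and bacterial ligands are known to slow that division over hours to days.

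These programs are known to act through short promoter motifs, and 4 promoters are given as examples of genes with such motifs among those called in 1 or more comparisons. Each run holds the 250 bases before the RefSeq gene start, read 5′ to 3′ along the gene, on build GRCm38.p6. Capitals mark a CHR element (TTTGAA or TTTAAA, the site of MuvB complexes), a CCAAT box (CCAAT, the site of NF-Y), or an E2F motif, each searched on both strands. The E2F motif was taken as TTGGCGC or as TTCCCGC, and also as TTCGCGC or as TTGCCGC. GENCODE starts Ube2c and Cenpa further upstream than RefSeq, inside the runs shown. Matches may overlap, as a CCAAT box with one on the other strand does in Ube2c and E2F motifs on opposite strands do in Mcm6.
Ube2c, chr2:164769679-164769928, plus strand: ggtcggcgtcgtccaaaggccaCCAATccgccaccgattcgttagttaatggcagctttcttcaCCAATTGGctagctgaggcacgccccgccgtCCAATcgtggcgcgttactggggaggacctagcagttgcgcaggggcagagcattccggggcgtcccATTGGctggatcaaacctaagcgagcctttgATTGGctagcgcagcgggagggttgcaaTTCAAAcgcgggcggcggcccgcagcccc
Cenpa, chr5:30666636-30666885, plus strand: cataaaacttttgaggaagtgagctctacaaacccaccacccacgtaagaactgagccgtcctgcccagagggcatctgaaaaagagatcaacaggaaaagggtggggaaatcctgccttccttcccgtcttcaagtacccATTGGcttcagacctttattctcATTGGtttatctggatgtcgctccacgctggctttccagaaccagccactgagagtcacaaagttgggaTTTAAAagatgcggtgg
Mki67, chr7:135716380-135716629, minus strand: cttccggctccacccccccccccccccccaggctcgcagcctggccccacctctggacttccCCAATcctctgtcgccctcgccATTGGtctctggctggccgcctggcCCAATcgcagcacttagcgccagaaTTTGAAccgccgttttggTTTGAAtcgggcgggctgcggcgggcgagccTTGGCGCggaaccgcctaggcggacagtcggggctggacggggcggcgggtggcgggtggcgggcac
Mcm6, chr1:128359706-128359955, minus strand: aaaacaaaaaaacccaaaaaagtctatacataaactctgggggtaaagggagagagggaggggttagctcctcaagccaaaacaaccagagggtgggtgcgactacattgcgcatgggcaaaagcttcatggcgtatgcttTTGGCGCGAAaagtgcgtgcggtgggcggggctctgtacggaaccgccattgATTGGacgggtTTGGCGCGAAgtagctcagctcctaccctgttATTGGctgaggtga
The Ube2c promoter held 6 CCAAT boxes and a CHR element 29 bases before the start, while that of Mcm6 held E2F motifs and CCAAT boxes and no CHR element. Counted over RefSeq windows of 300 bases, which run 50 bases past the start, 33 of the 40 genes had at least 1 window. Aurkb, Ccna2, Ccnd1, Gins2, Kif20a, Mcm4 and Tpx2 were not matched. A CHR element lay in 20 of the 33 genes, against 22.45% of the listed genes with a window, and a CCAAT box in 25 of 33, against 42.78%. An E2F motif lay in 12 of 33, against 19.43%, and both a CHR element and a CCAAT box in 18 of 33, against 9.11%. By role, an E2F motif lay in 6 of 8 genes of licensing and the replication fork. A CHR element lay in all 5 genes of the centromere and chromosome group, in 3 of 3 mitotic cyclin and CDK1 genes and in 2 of 2 genes of mitotic exit. A match in these letters is a description and not a measured site.

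Reads in the listed genes ran between 27398791 and 37559810 per library, and the lowest read count of any of the 40 genes was 46. The CPM (reads per 1e6 of a scaled library size) of the listed genes summed to between 998260 and 1037796 in treated libraries and to 959639 and 960837 in control libraries. All 10 macrophage markers were listed, with 49594 to 54165 CPM in sum, of which Lyz2, a lysozyme gene that neutrophils express too, held 42922 to 47748 CPM. Without it, Csf1r at 1816 to 2367.7 CPM and Adgre1 at 624.42 to 918.38 CPM, markers of macrophages, were listed in every library. Library 3 of AmTARS at 1 h stood apart on these genes. There 34 of 40 were higher than in library 2 of the same group, with a median difference of 0.15 on the log2 scale, while 50.2% of all tested genes were higher. In the other groups the split between libraries was 19 to 27 of 40.

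Per kilobase of transcript, these genes ranged widely in level. Pcna, the sliding clamp of DNA polymerase, led with 97.2 CPM per kb as a mean over the 10 libraries, and Cdkn1a followed with 61.4 CPM per kb. Next came the licensing genes Cdt1 at 15.0 and Mcm6 at 14.6 CPM per kb, which lay close together. Genes of mitosis included Cenpa at 11.5, Birc5 at 9.55, Ube2c at 9.18, Top2a at 4.60, Cdk1 at 4.10 and Mki67 at 2.32 CPM per kb. Replication genes reached low levels too, with Mcm2 at 4.14, Gins2 at 1.61 and Cdc6 at 0.777 CPM per kb. Cenpe and Cenpf, genes of large kinetochore proteins, closed the order at 0.594 and 0.275 CPM per kb. Ccnb1, Ccnb2, Pcna and Tyms have pseudogenes named after them in the annotation. They may share reads with these copies, and their values are less certain. Pseudogenes under other names were not searched.

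**Figure D1:**
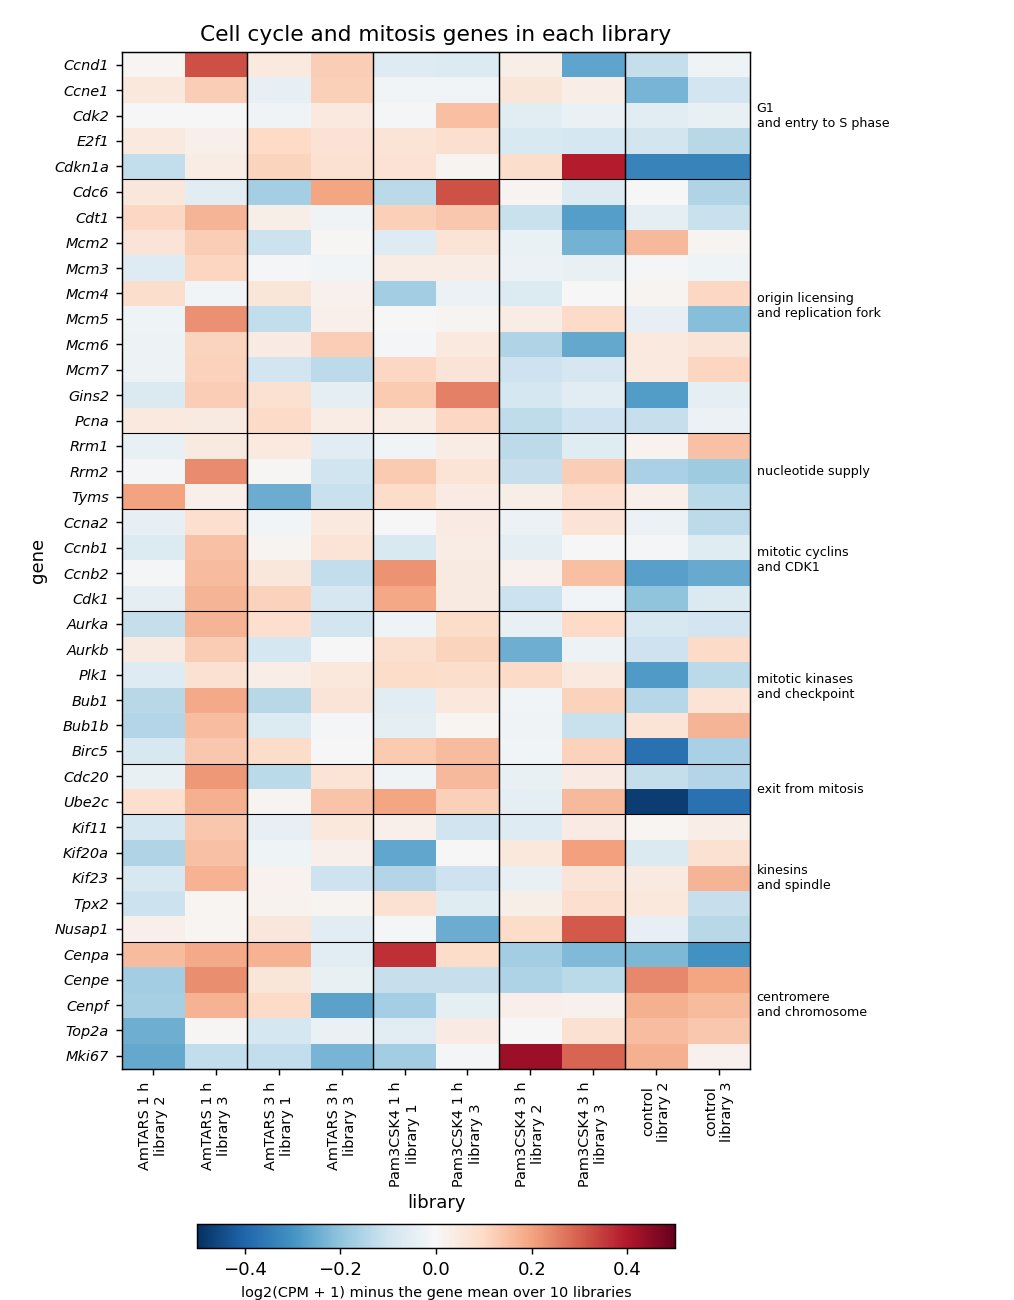
Level of the 40 genes in each library, as log2(CPM + 1) minus the mean of that gene over the 10 libraries, with genes in rows by role and libraries in columns. Red is above and blue below the gene's mean; Ube2c and Cdkn1a are blue in both control libraries, Mki67 is red in both Pam3CSK4 libraries at 3 h, and library 3 of AmTARS at 1 h is red for 37 genes.

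Against control cells, 10 of the 40 genes rose and 2 fell with AmTARS at 1 h, where 18.9% of all tested genes rose and 19.8% fell (limma, adjusted p below 0.05). At 3 h of AmTARS 7 rose and 3 fell, against 18.8% and 17.9% of all genes. With Pam3CSK4, 12 rose and 1 fell at 1 h, against 23.9% and 24.8%, and 7 rose and 4 fell at 3 h, against 24.7% and 24.2%. The share of the 40 that fell, as deposited, lay below the background in each of the 4 comparisons, and the share that rose lay on both sides of it. The median log2 fold change over the 40 genes was 0.095 and 0.076 for AmTARS at 1 h and 3 h and 0.10 and 0.057 for Pam3CSK4, and over all tested genes it was -0.0016, 0.0011, -0.0034 and -0.0068 in the same order. In bulk RNA, more dividing cells and more RNA per dividing cell cannot be told apart. The 4 comparisons share their control libraries.

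These counts depended on single libraries and on scaling. For AmTARS at 1 h, 5 of the 40 genes passed without AmTARS 1 h library 3 and also 5 without control library 2, while 3190 and 2603 of all genes passed, against 4415 with all libraries. For AmTARS at 3 h, 4 passed without its library 1, 6 without its library 3, 4 without control library 2 and 6 without control library 3. Of all genes 1997, 3337, 2313 and 3076 passed there, against 4186 with all libraries. For Pam3CSK4, 7 passed at 1 h without control library 2, and 7 at 3 h without its own library 3. All-gene calls were 3969 and 3844 in these fits, against 5556 and 5576 with all libraries, so calls fell over the whole table too. Rescaling left the total of all-gene calls close to the same, but all-gene rises and falls were not counted apart there. Treated libraries had the larger CPM sums, so scaling to the same sum lowers every gene in them against control. A shift of the 40 towards falls is therefore not shown to be particular to them. With each library scaled to the same sum over listed genes, 4484, 4213, 5593 and 5782 of all genes passed, AmTARS at 1 h and 3 h first. Of the 40, 4 rose and 2 fell with AmTARS at 1 h, 3 rose and 3 fell at 3 h, 7 rose and 5 fell with Pam3CSK4 at 1 h, and 4 rose and 8 fell at 3 h. Under the scaling to one sum, the rises of Ube2c, Cdkn1a, Cenpa and Ccnb2 given further on still passed. Those of E2f1, Ccne1, Cdt1, Mcm5, Pcna, Rrm2, Cdk1 and Nusap1 did not, nor did Birc5 with AmTARS, Plk1 at 3 h of either ligand or Mki67 at 3 h of Pam3CSK4 (0.17 on the log2 scale). With each library scaled by its median gene, 7 rose and 1 fell with AmTARS at 3 h.

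The log2 fold changes followed transcript length. Across the 40 genes, Spearman's rho of the log2 fold change with length was -0.718 and -0.67 for AmTARS at 1 h and 3 h and -0.733 and -0.415 for Pam3CSK4, against -0.73, -0.661, -0.727 and -0.506 across all 11014 genes with a length. These points share their libraries and are not independent replicates. The 40 transcripts ran from 947 nt in Birc5 to 11130 nt in Cenpf, with a median of 2963.5 nt, and the median of all tested genes was 2993 nt. With a correction for length and GC content applied to every library, 6 of the 40 rose and 0 fell with AmTARS at 1 h, where 8.22% of all genes rose and 6.18% fell. At 3 h of AmTARS 3 rose and 1 fell, against 10.9% and 7.79%. With Pam3CSK4, 5 rose and 0 fell at 1 h, against 11.6% and 11.3%, and 6 rose and 4 fell at 3 h, against 20.7% and 21.3%. Without AmTARS 1 h library 3, 0 of 40 passed after the correction for AmTARS at 1 h, where 918 of all genes did, against 1586 with all libraries. For Pam3CSK4 at 3 h without its library 3 the corrected count was 5, and 3412 of all genes passed.

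**Figure D2:**
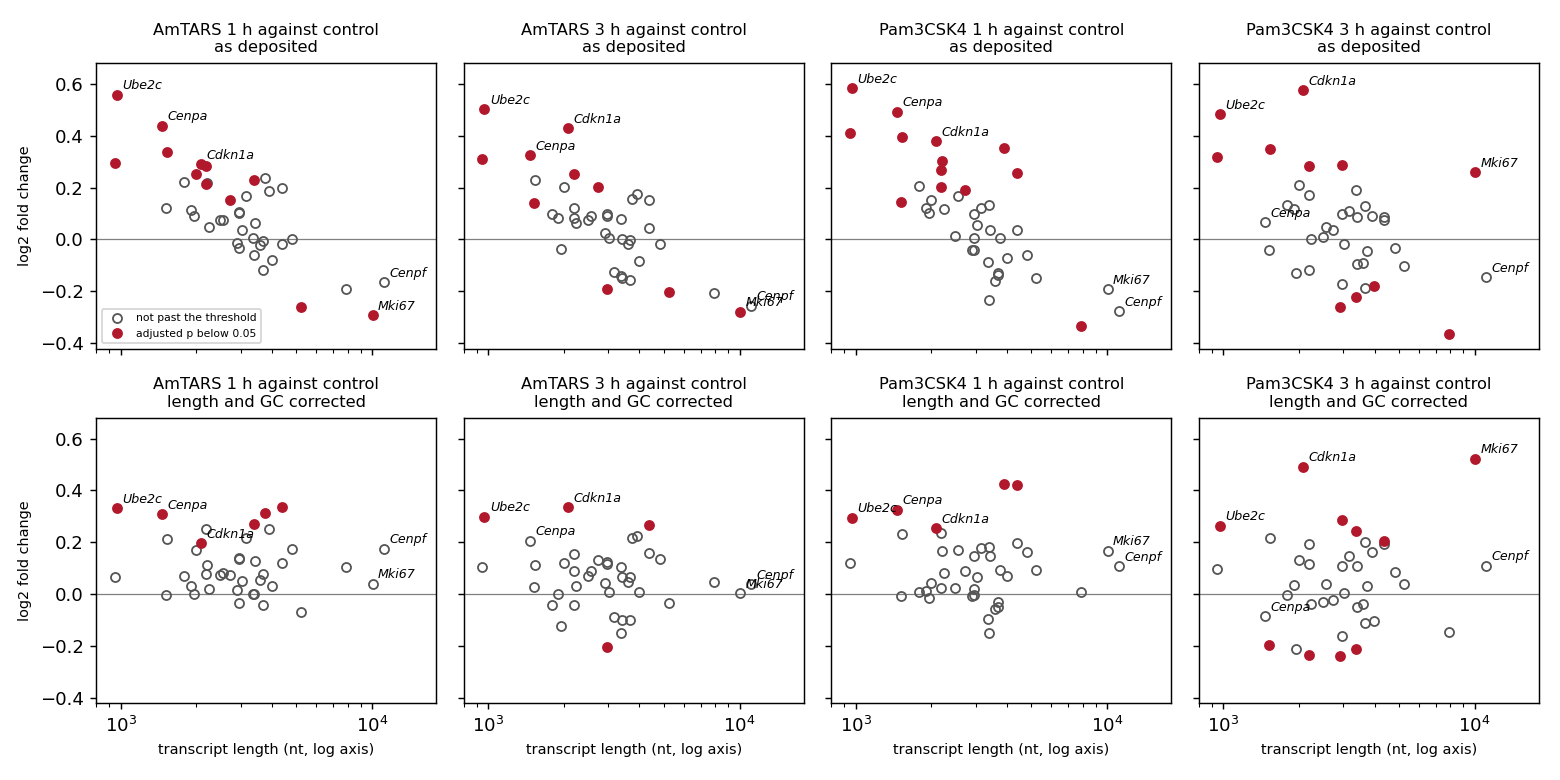
Log2 fold change against control cells of the 40 genes by transcript length (nt, log axis), as deposited in the upper row and after length and GC correction in the lower row, with filled points past adjusted p 0.05. Points slope downwards in the upper row and show no slope in the lower row, where Spearman's rho lies between -0.077 and 0.092; Ube2c and Cdkn1a stay above 0 in all panels.

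Ube2c showed the most even rise. It encodes the ubiquitin-conjugating enzyme with which the anaphase-promoting complex marks mitotic cyclins for destruction, and its short transcript (967 nt, chromosome 2, 164769898 to 164778822, mm10) is among the shortest of the 40. Ube2c stood at 9.36 and 10.1 CPM with AmTARS at 1 h and 8.84 and 9.77 CPM at 3 h. It stood at 10.2 and 9.61 CPM with Pam3CSK4 at 1 h and 8.43 and 9.93 CPM at 3 h, against 6.03 and 6.53 CPM in control cells. Each treated library lay above both control libraries. The log2 fold change was 0.56 (SE 0.092, limma adjusted p = 0.000145) and 0.50 (SE 0.092, limma adjusted p = 0.000413) for AmTARS at 1 h and 3 h. For Pam3CSK4 it was 0.58 (SE 0.092, limma adjusted p = 4.35e-05) at 1 h and 0.48 (SE 0.092, limma adjusted p = 0.000251) at 3 h. These 4 calls held with any 1 library left out. After length and GC correction the log2 fold change was 0.33 (adjusted p = 0.0128) and 0.30 (adjusted p = 0.0196) for AmTARS and 0.29 (adjusted p = 0.0181) and 0.26 (adjusted p = 0.0193) for Pam3CSK4, past the threshold in each case. The other gene of mitotic exit, Cdc20, an activator of the anaphase-promoting complex, passed in no comparison with control, with 0.22 and 0.10 for AmTARS and 0.20 and 0.13 for Pam3CSK4 on the log2 scale.

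Cdkn1a, the gene of the kinase inhibitor p21 (chromosome 17, 29090976 to 29100727, mm10), also rose in each treated group. It was read at 116 and 129.7 CPM with AmTARS at 1 h and 137 and 133 CPM at 3 h. It was read at 133 and 128 CPM with Pam3CSK4 at 1 h and 134 and 166 CPM at 3 h, against 100.02 and 100.06 CPM in control cells. Both control libraries were lower than each of the 8 treated libraries, and library 3 of Pam3CSK4 at 3 h was the highest. In log2 units the change was 0.29 (SE 0.071, limma adjusted p = 0.00337) for AmTARS at 1 h and 0.43 (SE 0.071, limma adjusted p = 0.00017) at 3 h. It was 0.38 (SE 0.071, limma adjusted p = 0.000242) for Pam3CSK4 at 1 h and 0.58 (SE 0.071, limma adjusted p = 1.85e-06) at 3 h. Corrected for length and GC, the values were 0.20 (adjusted p = 0.033), 0.34 (adjusted p = 0.000479), 0.25 (adjusted p = 0.00414) and 0.49 (adjusted p = 9.96e-07), in the same order. The AmTARS call at 1 h was lost without AmTARS 1 h library 3 (0.0723), adjusted p in brackets. The other 3 calls held with any 1 library left out. Its 2 RefSeq promoter windows held none of the motifs above.

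**Figure D3:**
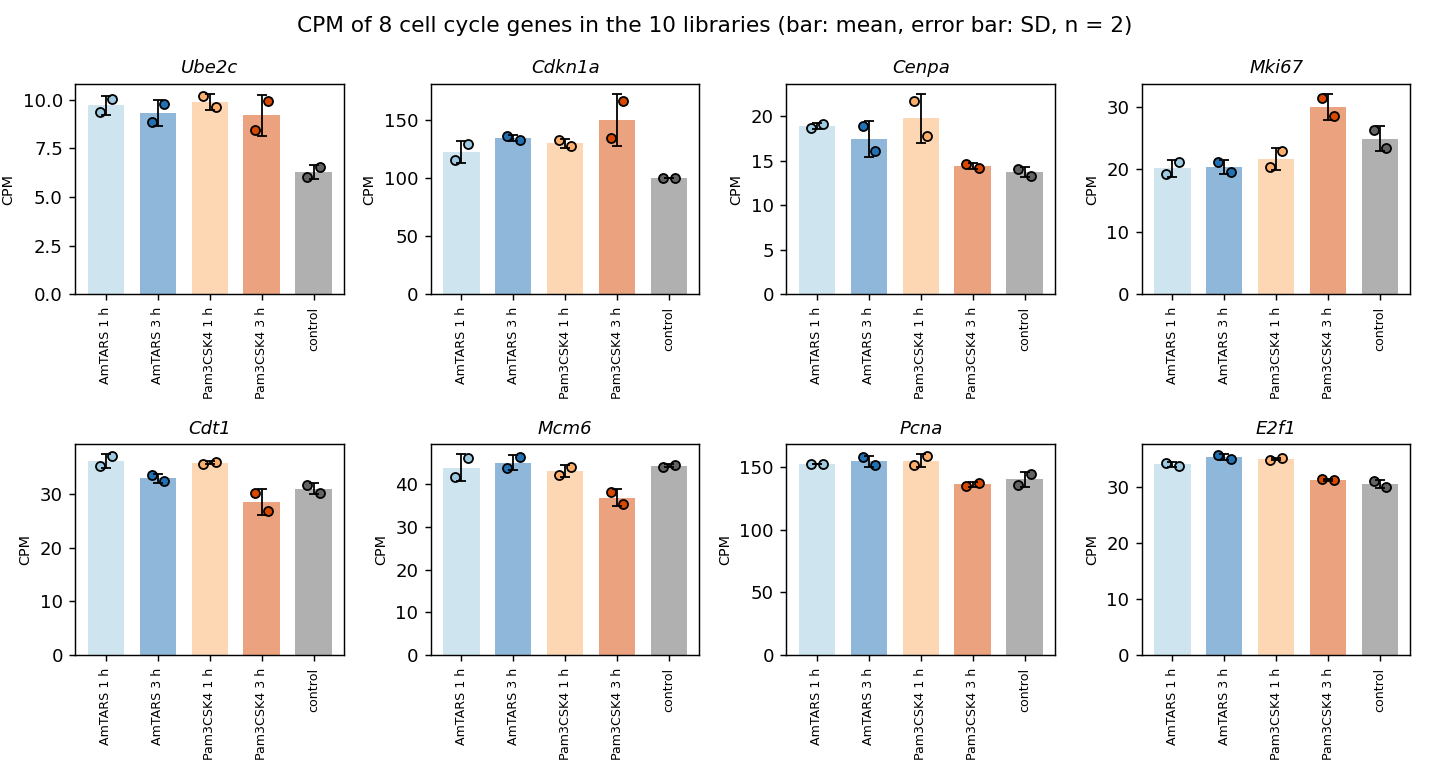
CPM of 8 cell cycle genes in each library, with bars for the mean of a group, error bars for the SD (n = 2) and points for libraries, on axes that start at 0. Control is lowest for Ube2c and Cdkn1a, Pam3CSK4 at 3 h is highest for Mki67 and lowest for Cdt1 and Mcm6, and Cenpa is near control in that group alone.

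Among the other genes of G1 and S phase entry, E2f1, the gene of the transcription factor that activates S phase genes, was measured at 34.3 and 33.7 CPM with AmTARS at 1 h and 35.6 and 34.9 CPM at 3 h. Its level was 34.8 and 35.1 CPM with Pam3CSK4 at 1 h and 31.4 and 31.1 CPM at 3 h, against 31.0 and 30.0 CPM in control cells. Of these, the values at 3 h of Pam3CSK4 were closest to control. The log2 fold change was 0.15 (SE 0.057, limma adjusted p = 0.0397) and 0.20 (SE 0.057, limma adjusted p = 0.00866) for AmTARS at 1 h and 3 h and 0.19 (SE 0.057, limma adjusted p = 0.00916) for Pam3CSK4 at 1 h, and it was 0.035 (adjusted p = 0.643) for Pam3CSK4 at 3 h. None of these passed after correction (0.39, 0.0803, 0.234 and 0.777, adjusted p). Ccne1, the gene of cyclin E1, which pairs with CDK2 at the start of S phase, was measured at 6.16 and 6.53 CPM with AmTARS at 1 h and 5.72 and 6.50 CPM at 3 h. It was at 5.85 and 5.85 CPM with Pam3CSK4 at 1 h and 6.20 and 6.08 CPM at 3 h, against 4.88 and 5.47 CPM in control cells. It rose with AmTARS at 1 h, with 0.25 (SE 0.095, limma adjusted p = 0.0427), and corrected 0.17 (adjusted p = 0.261). With adjusted p in brackets, the E2f1 call at 1 h of AmTARS was lost without AmTARS 1 h library 2 (0.157), AmTARS 1 h library 3 (0.096), AmTARS 3 h library 1 (0.0536), AmTARS 3 h library 3 (0.0535), control library 2 (0.0842) or control library 3 (0.188). At 3 h it was lost without AmTARS 3 h library 1 (0.0809) or control library 3 (0.0715), and for Pam3CSK4 at 1 h without control library 3 (0.0733). The Ccne1 call was lost without AmTARS 1 h library 2 (0.0805), AmTARS 1 h library 3 (0.187) or control library 2 (0.274). Ccnd1, the gene of cyclin D1, and Cdk2 passed in no comparison with control as deposited. Ccnd1 passed for AmTARS at 1 h after correction, with 0.31 (adjusted p = 0.0348), where libraries 2 and 3 held 9.52 and 12.1 CPM, against 8.63 and 9.30 CPM in control cells.

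Genes that license origins and build the replication fork numbered 10, of which some rose and some fell. As deposited, 2 rose with AmTARS at 1 h, 1 rose and 1 fell with AmTARS at 3 h, 3 rose with Pam3CSK4 at 1 h, and 2 fell with Pam3CSK4 at 3 h. Over all genes, 18.9% rose and 19.8% fell with AmTARS at 1 h, and 18.8% and 17.9% at 3 h. With Pam3CSK4 these shares were 23.9% and 24.8% at 1 h and 24.7% and 24.2% at 3 h. Cdt1, whose product loads the MCM helicase onto origins, stood at 35.3 and 37.0 CPM with AmTARS at 1 h and 33.5 and 32.3 CPM at 3 h. The level was 35.6 and 36.0 CPM with Pam3CSK4 at 1 h and 30.2 and 26.8 CPM at 3 h, against 31.7 and 30.3 CPM in control cells. Library 3 of Pam3CSK4 at 3 h was the lowest. In log2 units the change was 0.22 (SE 0.064, limma adjusted p = 0.0123) for AmTARS at 1 h and 0.20 (SE 0.064, limma adjusted p = 0.0134) for Pam3CSK4 at 1 h, and at 3 h it was 0.084 (adjusted p = 0.324) and -0.12 (adjusted p = 0.14). Corrected, the rises at 1 h were 0.077 (adjusted p = 0.423) and 0.026 (adjusted p = 0.793), and the value for Pam3CSK4 at 3 h was -0.23 (adjusted p = 0.00214), a fall. The AmTARS call at 1 h was lost without AmTARS 1 h library 3 (0.1) or control library 3 (0.0969), adjusted p in brackets, and the Pam3CSK4 call without Pam3CSK4 1 h library 3 (0.0538) or control library 3 (0.103).

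Of the 6 subunit genes of the MCM helicase, Mcm6 gave the clearest fall. Its values were 41.6 and 46.0 CPM with AmTARS at 1 h and 43.7 and 46.3 CPM at 3 h. They were 42.1 and 43.9 CPM with Pam3CSK4 at 1 h and 38.1 and 35.4 CPM at 3 h, against 44.0 and 44.4 CPM in control cells. Both libraries of Pam3CSK4 at 3 h lay below all other libraries. The log2 fold change there was -0.26 (SE 0.062, limma adjusted p = 0.00173), corrected -0.24 (adjusted p = 0.00136), and this call held with any 1 library left out. In the other treated groups it was -0.014, 0.024 and -0.039 (adjusted p = 0.879, 0.784 and 0.631, AmTARS at 1 h and 3 h and Pam3CSK4 at 1 h).

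Mcm2 had 14.6 and 15.2 CPM with AmTARS at 1 h and 12.8 and 13.9 CPM at 3 h. It had 13.3 and 14.6 CPM with Pam3CSK4 at 1 h and 13.5 and 11.7 CPM at 3 h, against 15.7 and 14.0 CPM in control cells. It fell with Pam3CSK4 at 3 h, with -0.22 (SE 0.086, limma adjusted p = 0.0371), corrected -0.21 (adjusted p = 0.0316), and the call was lost without Pam3CSK4 3 h library 3 (0.357) or control library 2 (0.287), adjusted p in brackets. Mcm7 had 17.4 and 19.2 CPM with AmTARS at 1 h and 16.5 and 16.0 CPM at 3 h. It had 19.0 and 18.5 CPM with Pam3CSK4 at 1 h and 16.4 and 16.6 CPM at 3 h, against 18.3 and 19.1 CPM in control cells. It fell with AmTARS at 3 h, with -0.19 (SE 0.071, limma adjusted p = 0.0392), corrected -0.20 (adjusted p = 0.0318). That call was lost without AmTARS 3 h library 1 (0.112), AmTARS 3 h library 3 (0.158), control library 2 (0.0887) or control library 3 (0.183). Mcm5 had 16.5 and 19.8 CPM with AmTARS at 1 h and 15.3 and 17.1 CPM at 3 h. It had 16.7 and 16.9 CPM with Pam3CSK4 at 1 h and 17.2 and 17.9 CPM at 3 h, against 16.3 and 14.3 CPM in control cells. It rose with AmTARS at 1 h, where library 3 was the highest of all, with 0.23 (SE 0.086, limma adjusted p = 0.0418), corrected 0.27 (adjusted p = 0.0212). The call was lost without AmTARS 1 h library 3 (0.449) or control library 3 (0.321). After correction Mcm5 also passed for Pam3CSK4 at 3 h, with 0.24 (adjusted p = 0.0159), so the subunits of 1 complex went in both directions there. Mcm3 and Mcm4 passed in no comparison with control.

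Pcna was at 153 and 152 CPM with AmTARS at 1 h and 158 and 151 CPM at 3 h. It was at 151 and 158 CPM with Pam3CSK4 at 1 h and 135 and 137 CPM at 3 h, against 136 and 144 CPM in control cells. It rose with AmTARS at 3 h by 0.14 (SE 0.048, limma adjusted p = 0.0273) and with Pam3CSK4 at 1 h by 0.14 (SE 0.048, limma adjusted p = 0.0176). Neither passed after correction, at 0.029 (adjusted p = 0.705) and -0.0052 (adjusted p = 0.948). For Pam3CSK4 at 3 h the value was -0.042 as deposited (adjusted p = 0.489), and corrected it was -0.19 (adjusted p = 0.000753), a fall. The AmTARS call was lost without AmTARS 3 h library 1 (0.227) or control library 2 (0.258), adjusted p in brackets, and the Pam3CSK4 call without Pam3CSK4 1 h library 3 (0.128) or control library 2 (0.195). Gins2, a subunit gene of the replicative helicase complex, was at 5.89 and 6.90 CPM with AmTARS at 1 h and 6.63 and 6.02 CPM at 3 h. It was at 6.93 and 7.63 CPM with Pam3CSK4 at 1 h and 5.82 and 5.97 CPM at 3 h, against 4.97 and 6.03 CPM in control cells. It rose with Pam3CSK4 at 1 h by 0.35 (SE 0.10, limma adjusted p = 0.00822), corrected 0.43 (adjusted p = 0.00367), a call lost without Pam3CSK4 1 h library 3 (0.0692) or control library 2 (0.143). Cdc6, which loads MCM with Cdt1, passed in no comparison, and its libraries of Pam3CSK4 at 1 h held 1.70 and 2.70 CPM.

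Among 3 nucleotide-supply genes, Rrm2 rose at 1 h of both ligands and Rrm1 fell with Pam3CSK4 at 3 h. Rrm2, the gene of the small subunit of ribonucleotide reductase, had 15.3 and 18.4 CPM with AmTARS at 1 h and 15.5 and 14.4 CPM at 3 h. It had 17.0 and 16.3 CPM with Pam3CSK4 at 1 h and 14.2 and 16.9 CPM at 3 h, against 13.7 and 13.6 CPM in control cells. It rose at 1 h of AmTARS by 0.28 (SE 0.09, limma adjusted p = 0.0177) and at 1 h of Pam3CSK4 by 0.27 (SE 0.09, limma adjusted p = 0.0183). Corrected, these were 0.25 (adjusted p = 0.0511) and 0.23 (adjusted p = 0.0522), just short of the threshold. Rrm1, the gene of the large subunit, had 34.5 and 36.6 CPM with AmTARS at 1 h and 36.6 and 34.2 CPM at 3 h. It had 35.1 and 36.4 CPM with Pam3CSK4 at 1 h and 32.2 and 34.0 CPM at 3 h, against 35.9 and 39.3 CPM in control cells. It fell with Pam3CSK4 at 3 h, with -0.18 (SE 0.064, limma adjusted p = 0.0263), corrected -0.10 (adjusted p = 0.171). By leave-one-out fits (adjusted p in brackets), the Rrm2 calls were lost without AmTARS 1 h library 3 (0.264), control library 2 (0.0745) or control library 3 (0.0767) for AmTARS and without Pam3CSK4 1 h library 1 (0.107), control library 2 (0.0684) or control library 3 (0.0768) for Pam3CSK4, and the Rrm1 call without Pam3CSK4 3 h library 2 (0.131) or control library 3 (0.258). Tyms, the gene of thymidylate synthase, passed in no comparison.

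Of the 4 genes of mitotic cyclins and CDK1, Ccnb2, a B type cyclin gene, had the most calls. It was found at 7.65 and 8.69 CPM with AmTARS at 1 h and 8.04 and 6.99 CPM at 3 h. It was found at 9.15 and 7.97 CPM with Pam3CSK4 at 1 h and 7.82 and 8.66 CPM at 3 h, against 6.20 and 6.31 CPM in control cells. All treated libraries lay above both control libraries. It rose with AmTARS at 1 h by 0.34 (SE 0.10, limma adjusted p = 0.0103) and with Pam3CSK4 by 0.40 (SE 0.10, limma adjusted p = 0.00242) at 1 h and 0.35 (SE 0.10, limma adjusted p = 0.00605) at 3 h. Corrected, the values were 0.21 (adjusted p = 0.13), 0.23 (adjusted p = 0.0662) and 0.22 (adjusted p = 0.0595), none past the threshold. Cdk1, the gene of the kinase that starts mitosis, was found at 17.3 and 20.2 CPM with AmTARS at 1 h and 19.4 and 16.8 CPM at 3 h. It was found at 20.6 and 18.4 CPM with Pam3CSK4 at 1 h and 16.5 and 17.7 CPM at 3 h, against 15.4 and 16.9 CPM in control cells. It rose with Pam3CSK4 at 1 h by 0.26 (SE 0.088, limma adjusted p = 0.021). After correction it passed for AmTARS at 1 h and 3 h and Pam3CSK4 at 1 h, with 0.34 (adjusted p = 0.0106), 0.27 (adjusted p = 0.0331) and 0.42 (adjusted p = 0.00113). With adjusted p in brackets, the Ccnb2 calls were lost without AmTARS 1 h library 3 (0.118) or control library 2 (0.0642) for AmTARS at 1 h, Pam3CSK4 1 h library 1 (0.0509) for Pam3CSK4 at 1 h and Pam3CSK4 3 h library 3 (0.0722) at 3 h, and the Cdk1 call without Pam3CSK4 1 h library 1 (0.198) or control library 2 (0.178). Ccna2 and Ccnb1 passed in no comparison with control.

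Among 6 genes of mitotic kinases and the spindle checkpoint, Birc5 and Plk1 rose as deposited. Birc5, which encodes survivin of the chromosomal passenger complex, was counted at 8.44 and 9.96 CPM with AmTARS at 1 h and 9.63 and 8.97 CPM at 3 h. It was counted at 9.93 and 10.1 CPM with Pam3CSK4 at 1 h and 8.88 and 9.82 CPM at 3 h, against 6.71 and 7.93 CPM in control cells. Control library 2 was the lowest. The log2 fold change was 0.29 (SE 0.10, limma adjusted p = 0.0207) and 0.31 (SE 0.10, limma adjusted p = 0.016) for AmTARS at 1 h and 3 h and 0.41 (SE 0.10, limma adjusted p = 0.00158) and 0.32 (SE 0.10, limma adjusted p = 0.01) for Pam3CSK4. Its transcript is the shortest of the 40, and after correction none of the 4 passed (0.067, 0.11, 0.12 and 0.10). Plk1, the gene of a kinase of spindle assembly, was counted at 7.19 and 8.01 CPM with AmTARS at 1 h and 7.77 and 7.87 CPM at 3 h. It was counted at 8.11 and 8.11 CPM with Pam3CSK4 at 1 h and 8.14 and 7.85 CPM at 3 h, against 6.03 and 6.78 CPM in control cells. It rose with AmTARS at 3 h by 0.25 (SE 0.089, limma adjusted p = 0.0312) and with Pam3CSK4 by 0.30 (SE 0.089, limma adjusted p = 0.00877) at 1 h and 0.28 (SE 0.089, limma adjusted p = 0.0127) at 3 h, and corrected by 0.16 (adjusted p = 0.226), 0.17 (adjusted p = 0.176) and 0.19 (adjusted p = 0.0739), none past the threshold.

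By leave-one-out fits (adjusted p in brackets), the Birc5 calls were lost without AmTARS 1 h library 3 (0.234) or control library 2 (0.245) for AmTARS at 1 h, AmTARS 3 h library 1 (0.134) or control library 2 (0.212) at 3 h and Pam3CSK4 3 h library 3 (0.103) or control library 2 (0.158) for Pam3CSK4 at 3 h. The Birc5 call for Pam3CSK4 at 1 h held with any 1 library left out. The Plk1 calls were lost without AmTARS 3 h library 1 (0.116), AmTARS 3 h library 3 (0.112) or control library 2 (0.253) for AmTARS at 3 h, control library 2 (0.112) for Pam3CSK4 at 1 h and Pam3CSK4 3 h library 2 (0.057) or control library 2 (0.143) at 3 h. Each of these 6 calls was among those lost without control library 2. Aurka, Aurkb, Bub1 and Bub1b, genes of the Aurora kinases and of checkpoint kinases, passed in no comparison with control.

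Of 5 genes of kinesins and the spindle, Nusap1 alone passed as deposited against control. Nusap1, which encodes a microtubule-binding spindle protein, was at 6.67 and 6.59 CPM with AmTARS at 1 h and 6.85 and 6.26 CPM at 3 h. It was at 6.52 and 5.35 CPM with Pam3CSK4 at 1 h and 7.05 and 8.32 CPM at 3 h, against 6.34 and 5.86 CPM in control cells. Both libraries of Pam3CSK4 at 3 h were the highest. It rose there by 0.29 (SE 0.10, limma adjusted p = 0.0255), corrected 0.29 (adjusted p = 0.0238), and the call was lost without Pam3CSK4 3 h library 3 (0.263) or control library 3 (0.147), adjusted p in brackets. Tpx2, an activator of Aurora A on the spindle, passed for Pam3CSK4 at 3 h after correction alone, with 0.20 (adjusted p = 0.0445). The kinesin genes Kif11, Kif20a and Kif23 passed in no comparison with control.

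Of 5 genes of the centromere and chromosome, Cenpa rose, Top2a and Cenpe fell, and Mki67 did both in different groups. Cenpa, the short gene of the histone H3 variant that marks centromeres (1466 nt, chromosome 5, 30666777 to 30674830, mm10), was measured at 18.7 and 19.2 CPM with AmTARS at 1 h and 18.9 and 16.1 CPM at 3 h. It came to 21.7 and 17.8 CPM with Pam3CSK4 at 1 h and 14.7 and 14.2 CPM at 3 h, against 14.1 and 13.3 CPM in control cells. The libraries of Pam3CSK4 at 3 h were the treated ones nearest to control. Cenpa rose with AmTARS by 0.44 (SE 0.089, limma adjusted p = 0.000772) at 1 h and 0.32 (SE 0.089, limma adjusted p = 0.00756) at 3 h and with Pam3CSK4 at 1 h by 0.49 (SE 0.089, limma adjusted p = 0.000157), and at 3 h of Pam3CSK4 it was 0.066 (adjusted p = 0.567). Corrected, it was 0.31 (adjusted p = 0.0106), 0.21 (adjusted p = 0.0739), 0.33 (adjusted p = 0.00453) and -0.083 (adjusted p = 0.426), AmTARS at 1 h and 3 h first and Pam3CSK4 after it. Both calls at 1 h held with any 1 library left out, while that of AmTARS at 3 h was lost without AmTARS 3 h library 1 (0.161) or control library 3 (0.0637), adjusted p in brackets.

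Mki67, the gene of the proliferation antigen Ki-67 that coats mitotic chromosomes (10061 nt, chromosome 7, 135689784 to 135716361, mm10), was measured at 19.2 and 21.1 CPM with AmTARS at 1 h and 21.1 and 19.5 CPM at 3 h. It came to 20.4 and 22.9 CPM with Pam3CSK4 at 1 h and 31.4 and 28.4 CPM at 3 h, against 26.3 and 23.5 CPM in control cells. Both libraries of Pam3CSK4 at 3 h were above all 8 other libraries. It fell with AmTARS, with a log2 fold change of -0.29 (SE 0.079, limma adjusted p = 0.00704) at 1 h and -0.28 (SE 0.079, limma adjusted p = 0.00996) at 3 h. With Pam3CSK4 it was -0.19 (adjusted p = 0.0519) at 1 h and 0.26 (SE 0.079, limma adjusted p = 0.0107) at 3 h, a rise. Corrected, the values for AmTARS were 0.041 (adjusted p = 0.748) and 0.0037 (adjusted p = 0.977), no longer below 0, and that for Pam3CSK4 at 3 h was 0.52 (adjusted p = 1.07e-06). The AmTARS calls were lost without AmTARS 1 h library 2 (0.0924) or control library 2 (0.12) at 1 h and AmTARS 3 h library 3 (0.0919) or control library 2 (0.149) at 3 h, adjusted p in brackets, and the Pam3CSK4 call without Pam3CSK4 3 h library 2 (0.102) or control library 3 (0.144).

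Top2a and Cenpe, both long transcripts, had falls that did not pass after correction. Top2a, the gene of the topoisomerase that untangles chromosomes, had 20.1 and 24.1 CPM with AmTARS at 1 h and 22.5 and 23.4 CPM at 3 h. It had 23.1 and 24.7 CPM with Pam3CSK4 at 1 h and 24.0 and 25.3 CPM at 3 h, against 26.8 and 26.4 CPM in control cells. It fell with AmTARS, with a log2 fold change of -0.26 (SE 0.076, limma adjusted p = 0.00997) at 1 h and -0.20 (SE 0.076, limma adjusted p = 0.0411) at 3 h, corrected -0.066 (adjusted p = 0.609) and -0.035 (adjusted p = 0.795). Cenpe, the gene of a kinetochore motor, had 4.01 and 5.66 CPM with AmTARS at 1 h and 4.91 and 4.52 CPM at 3 h. It had 4.22 and 4.23 CPM with Pam3CSK4 at 1 h and 4.08 and 4.16 CPM at 3 h, against 5.68 and 5.50 CPM in control cells. It fell with Pam3CSK4, with a log2 fold change of -0.33 (SE 0.11, limma adjusted p = 0.0212) at 1 h and -0.36 (SE 0.11, limma adjusted p = 0.0129) at 3 h, corrected 0.011 (adjusted p = 0.96) and -0.14 (adjusted p = 0.33). With adjusted p in brackets, the Top2a calls were lost without AmTARS 1 h library 2 (0.221) or control library 2 (0.0674) at 1 h and AmTARS 3 h library 1 (0.212), AmTARS 3 h library 3 (0.075), control library 2 (0.165) or control library 3 (0.108) at 3 h. The Cenpe calls were lost without Pam3CSK4 1 h library 1 (0.0809), Pam3CSK4 1 h library 3 (0.0621), control library 2 (0.102) or control library 3 (0.0613) at 1 h and control library 2 (0.0748) at 3 h. Cenpf, the longest of the 40 transcripts, passed in no comparison.

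The ligands were then set against each other at the same time. At 1 h, 0 of the 40 genes differed between AmTARS and Pam3CSK4 in limma, where 0.00877% of all genes were higher and 0.175% lower. At an unadjusted p below 0.05 there was 1 of the 40, against 8.39% of all genes, and voom with limma on the recovered reads called 0. The lowest adjusted p was 0.588, for Ccnd1, with 0.23 on the log2 scale (95% interval 0.012 to 0.45). Differences at 1 h were not detectable with 2 libraries a group, which does not show that the ligands act alike.

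At 3 h, 5 of the 40 genes were higher and 1 lower with AmTARS than with Pam3CSK4, against 8.04% and 9.08% of all genes. After length and GC correction the counts were again 5 and 1, against 11.2% and 10.8%. Mki67 was lower with AmTARS, at 21.1 and 19.5 CPM against 31.4 and 28.4 CPM with Pam3CSK4, a log2 fold change of -0.54 (SE 0.079, limma adjusted p = 4.32e-05). Mcm6 was higher, at 43.7 and 46.3 CPM with AmTARS against 38.1 and 35.4 CPM with Pam3CSK4, by 0.28 (SE 0.062, limma adjusted p = 0.00233). Both held with any 1 library left out, and corrected they were -0.52 (adjusted p = 2.52e-06) and 0.28 (adjusted p = 0.000555). The replication genes Pcna, by 0.18 (SE 0.048, limma adjusted p = 0.0103), and Cdt1, by 0.20 (SE 0.064, limma adjusted p = 0.035), the regulator E2f1, by 0.17 (SE 0.057, limma adjusted p = 0.0455), and Cenpa, by 0.26 (SE 0.089, limma adjusted p = 0.0495), were higher with AmTARS too. Each of the 6 genes passed after correction.

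Some of these differences at 3 h rested on single libraries. Without AmTARS 3 h library 1, 2 of the 40 genes passed, and without Pam3CSK4 3 h library 3, 3 passed. Of all genes 1193 and 1141 then passed, against 1953 with all libraries. By leave-one-out fits (adjusted p in brackets), the Pcna call was lost without AmTARS 3 h library 1 (0.138), and the Cdt1 call without AmTARS 3 h library 1 (0.214), AmTARS 3 h library 3 (0.0861) or Pam3CSK4 3 h library 3 (0.374). The E2f1 call was lost without AmTARS 1 h library 2 (0.0572), AmTARS 1 h library 3 (0.0571), AmTARS 3 h library 1 (0.232), AmTARS 3 h library 3 (0.129), Pam3CSK4 3 h library 2 (0.0858), Pam3CSK4 3 h library 3 (0.164), control library 2 (0.0591) or control library 3 (0.059). The Cenpa call was lost without AmTARS 1 h library 2 (0.0619), AmTARS 1 h library 3 (0.062), AmTARS 3 h library 1 (0.466), Pam3CSK4 3 h library 2 (0.0768), Pam3CSK4 3 h library 3 (0.212), control library 2 (0.0619) or control library 3 (0.0617).

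Over time, AmTARS at 3 h against 1 h changed 0 of the 40 genes in limma, where 1.81% of all genes rose and 0.57% fell. At an unadjusted p below 0.05 there were 2 of the 40, against 12.1% of all genes, and voom called 0. The lowest adjusted p was 0.195, for Tyms, with 3.56 and 4.02 CPM at 3 h against 5.24 and 4.52 CPM at 1 h. Pam3CSK4 at 3 h against 1 h gave 3 rises and 5 falls, where 16.2% of all genes rose and 15.3% fell. With each library scaled to the same sum it gave 2 rises and 6 falls, and all-gene rises and falls were not counted apart there. After correction there were again 3 rises and 5 falls, against 16.4% and 16.9%, with Rrm1 at -0.17 (adjusted p = 0.0256) among the falls in place of E2f1 at -0.11 (adjusted p = 0.107).

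The falls between 1 h and 3 h of Pam3CSK4 were in genes of S phase and in Cenpa. Cenpa fell to 14.7 and 14.2 CPM at 3 h, against 21.7 and 17.8 CPM at 1 h, a log2 fold change of -0.43 (SE 0.089, limma adjusted p = 0.000942). In log2 units the change was -0.32 (SE 0.064, limma adjusted p = 0.000673) for Cdt1 and -0.22 (SE 0.062, limma adjusted p = 0.00957) for Mcm6. It was -0.19 (SE 0.048, limma adjusted p = 0.00526) for Pcna and -0.16 (SE 0.057, limma adjusted p = 0.042) for E2f1. Mki67 rose, with 31.4 and 28.4 CPM at 3 h against 20.4 and 22.9 CPM at 1 h and a log2 fold change of 0.45 (SE 0.079, limma adjusted p = 0.000176). Nusap1, by 0.33 (SE 0.10, limma adjusted p = 0.0196), and Cdkn1a, by 0.20 (SE 0.071, limma adjusted p = 0.0403), rose as well. The calls of Cenpa, Cdt1 and Mki67 held with any 1 library left out. Without Pam3CSK4 1 h library 3, 4 of the 40 genes passed, and without Pam3CSK4 3 h library 3, 5 passed, while 3165 and 2683 of all genes did, against 3597 with all libraries. With adjusted p in brackets, Mcm6 was lost without Pam3CSK4 1 h library 3 (0.0673) or Pam3CSK4 3 h library 3 (0.0949), Pcna without Pam3CSK4 1 h library 3 (0.0556), and Nusap1 without Pam3CSK4 1 h library 3 (0.212) or Pam3CSK4 3 h library 3 (0.201). Cdkn1a was lost without Pam3CSK4 1 h library 1 (0.0722), Pam3CSK4 1 h library 3 (0.164), Pam3CSK4 3 h library 3 (0.653), control library 2 (0.0528) or control library 3 (0.0529), and E2f1 with any of the 10 libraries left out, at adjusted p between 0.0515 and 0.125.

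**Figure D4:**
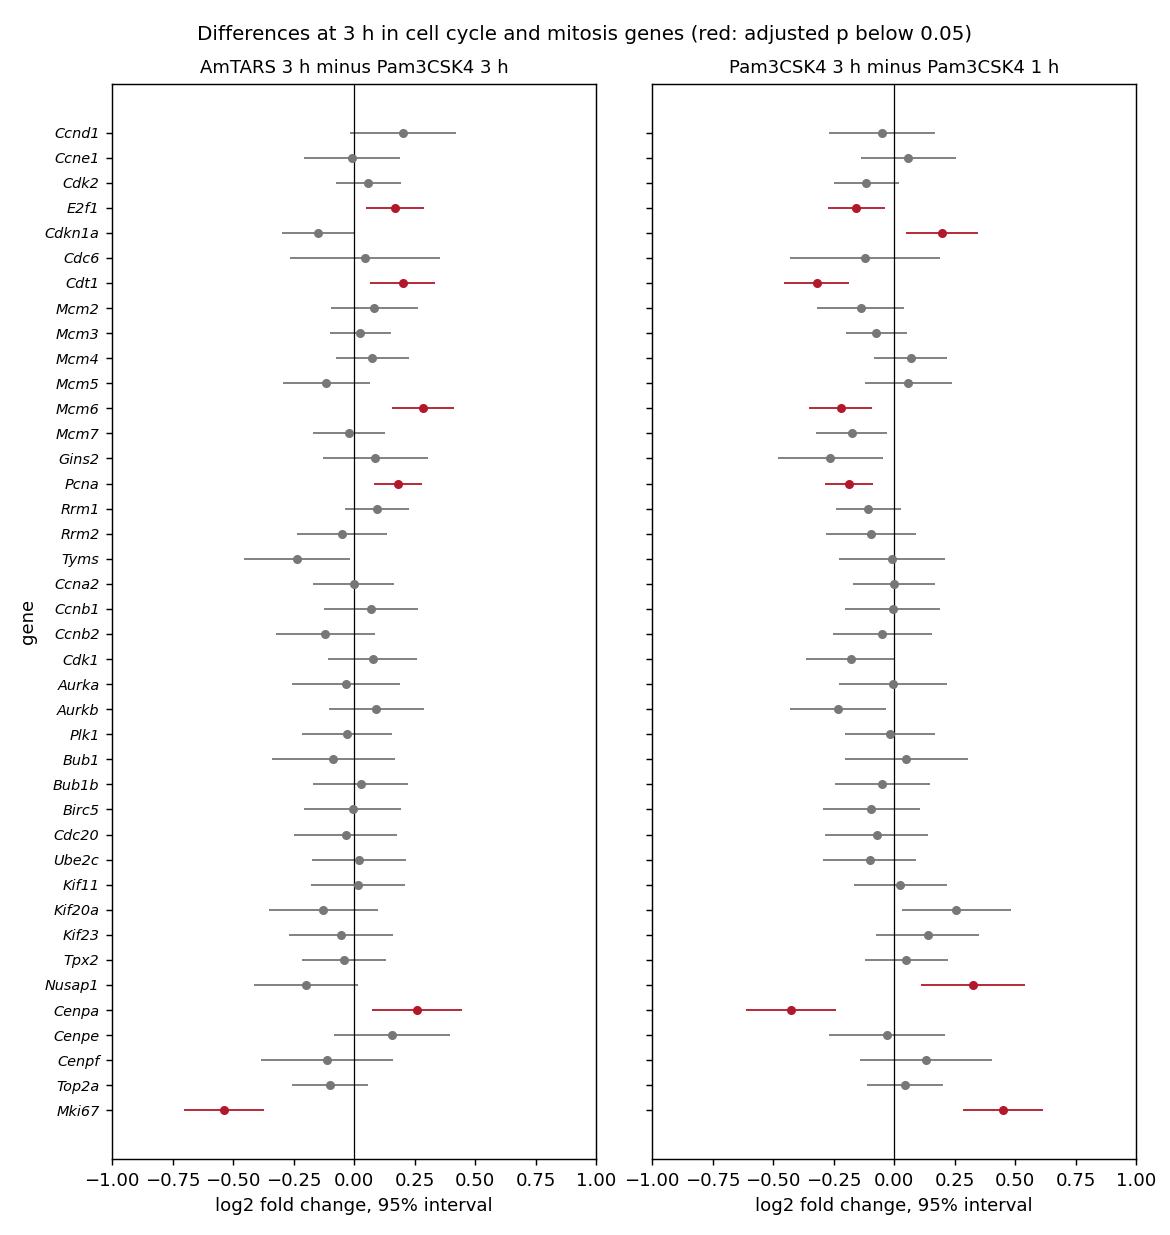
Log2 fold change with its 95% interval for each of the 40 genes, for AmTARS 3 h minus Pam3CSK4 3 h on the left and Pam3CSK4 3 h minus Pam3CSK4 1 h on the right, with genes past adjusted p 0.05 in red. Mki67 is the lowest point on the left and the highest on the right, while Cdt1, Mcm6, Pcna, E2f1 and Cenpa lie right of 0 on the left and left of 0 on the right; both panels use the Pam3CSK4 libraries of 3 h.

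The test of whether the change with time differed between the ligands passed for 1 of the 40 genes, Mki67, where 3.49% of all genes were higher and 5.71% lower. The difference of time changes, AmTARS minus Pam3CSK4, was -0.44 (SE 0.11, limma adjusted p = 0.0149) for Mki67. It was lost without AmTARS 1 h library 3 (0.0837), AmTARS 3 h library 3 (0.0715), Pam3CSK4 1 h library 1 (0.0861) or Pam3CSK4 3 h library 2 (0.053), adjusted p in brackets. Without AmTARS 3 h library 3 or Pam3CSK4 1 h library 1, 0 of the 40 passed, and without Pam3CSK4 1 h library 3, 2 passed. All-gene calls were 871, 805 and 972 in these fits, against 1049 with all libraries. After length and GC correction 2 genes were higher and 1 lower, against 5.18% and 6.97% of all genes. These were Mcm6 with 0.26 (adjusted p = 0.0309), Pcna with 0.22 (adjusted p = 0.0164) and Mki67 with -0.39 (adjusted p = 0.00567). As deposited, Mcm6 stood at 0.26 (adjusted p = 0.0723) and Pcna at 0.20 (adjusted p = 0.0645). For the other genes a difference between the ligands in the change with time was not shown.

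Wider lists of cell cycle genes, chosen by textbook role and without the 40, were counted in the same fit. The all-gene shares to read them against are those given above: 18.9% higher and 19.8% lower for AmTARS at 1 h, 18.8% and 17.9% at 3 h, 23.9% and 24.8% for Pam3CSK4 at 1 h, and 24.7% and 24.2% at 3 h. After length and GC correction these shares were 8.22% and 6.18% for AmTARS at 1 h and 10.9% and 7.79% at 3 h. For Pam3CSK4 they were then 11.6% and 11.3% at 1 h and 20.7% and 21.3% at 3 h. Of 34 further tested genes of replication and S phase, 6 rose and 1 fell with AmTARS at 1 h, 2 rose and 1 fell at 3 h, 7 rose and 1 fell with Pam3CSK4 at 1 h, and 2 rose and 3 fell at 3 h. After length and GC correction, 2 rose and 0 fell, 2 rose and 1 fell, 3 rose and 0 fell, and 1 rose and 8 fell, in the same order. The share that rose lay below the all-gene share in each of the 4 comparisons, with the deposited values and corrected. Rpa2, a subunit gene of the single-strand binding protein RPA, had a log2 fold change of 0.54 (adjusted p = 9.65e-05) with Pam3CSK4 at 3 h, corrected 0.45 (adjusted p = 0.000172). Rfc1, a subunit gene of the clamp loader, had one of -0.48 (adjusted p = 2.58e-06), corrected -0.34 (adjusted p = 1.03e-05). Between 3 h and 1 h of Pam3CSK4, 6 of the 34 fell and 0 rose, against 15.3% and 16.2% of all genes. Corrected, 7 fell and 0 rose, against 16.9% and 16.4%. Gmnn, the inhibitor of Cdt1, was at -0.42 (adjusted p = 0.00092) and Rfc2 at -0.33 (adjusted p = 0.000127). At 3 h, 4 were higher and 0 lower with AmTARS than with Pam3CSK4, against 8.04% and 9.08%. Corrected, 6 were higher and 0 lower, against 11.2% and 10.8%. Gmnn was at 0.28 (adjusted p = 0.0288) and Rfc1 at 0.23 (adjusted p = 0.0113).

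Of 46 further genes of G2 and mitosis, 7 rose and 2 fell with AmTARS at 1 h, 5 rose and 2 fell at 3 h, 10 rose and 4 fell with Pam3CSK4 at 1 h, and 4 rose and 6 fell at 3 h. Corrected, 2 rose and 0 fell, 4 rose and 0 fell, 4 rose and 0 fell, and 3 rose and 3 fell. The shares that rose and that fell lay below the all-gene shares in each of the 4 comparisons. Pttg1, the gene of securin, rose with Pam3CSK4 at 3 h by 0.43 (adjusted p = 8.9e-05), and by 0.20 (adjusted p = 0.0112) after correction. Wee1 and Cdc25b, genes of a kinase that holds CDK1 inactive and a phosphatase that frees it, fell there, with log2 fold changes of -0.55 (adjusted p = 0.000375) and -0.53 (adjusted p = 1.29e-05). At 3 h both were higher with AmTARS than with Pam3CSK4, by 0.61 (adjusted p = 0.000394) and 0.36 (adjusted p = 0.00207).

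Of 26 further genes of G1 cyclins, kinases, inhibitors and the RB and E2F family, 6 rose and 6 fell with AmTARS at 1 h and again 6 and 6 at 3 h, while 7 rose and 8 fell with Pam3CSK4 at 1 h and 5 rose and 9 fell at 3 h. Corrected, 2 rose and 1 fell with AmTARS at 1 h, 0 rose and 1 fell at 3 h, 4 rose and 3 fell with Pam3CSK4 at 1 h, and 3 rose and 7 fell at 3 h. Most of the AmTARS calls were lost. All-gene calls for AmTARS fell under the correction too, from 4415 to 1586 at 1 h and from 4186 to 2056 at 3 h. E2f2, an activating E2F gene, fell with Pam3CSK4 at 3 h, at -0.56 (adjusted p = 1.15e-05) on the log2 scale, was 0.38 (adjusted p = 0.00161) with AmTARS against Pam3CSK4 at 3 h, and had a difference of time changes of 0.54 (adjusted p = 0.00312). Skp2, whose product marks the inhibitor p27 for destruction, also fell with Pam3CSK4 at 3 h, at -0.46 (adjusted p = 0.000976). Apart from Pttg1, the values named from the wider lists moved by less than 1.5 times under the correction and passed there too. These adjusted p-values are from limma over all genes tested.

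Markers of other cells were listed too, and for some of these lists the treated and control ranges overlapped. Of 8 neutrophil markers 7 were listed and Ly6g was not, and their summed level ran between 2119.3 and 2735 CPM in treated libraries, against 1615.5 and 1699.9 CPM in control libraries. All 5 fibroblast or stromal markers were listed, with 1221.3 to 1433.6 CPM in treated libraries, against 1415.3 and 1485.8 CPM in control libraries. All 6 markers of myeloid progenitors, which divide, were listed, with 46.464 to 56.939 CPM in treated libraries, against 44.111 and 48.152 CPM in control libraries. Of 8 dendritic cell markers 3 were listed, with 60.781 to 70.122 CPM in treated libraries, against 69.517 and 70.572 CPM in control libraries. Of 4 mast cell or basophil markers 2 were listed, with 6.4946 to 8.9796 CPM, against 6.84 and 7.2542 CPM. Of T cell markers, Cd4 alone was listed, with 9.1925 to 11.838 CPM, against 12.563 and 13.366 CPM. No B cell or erythroid marker was listed. The part of these cells in the differences above was not tested.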

How the data were processed

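RNA of bone-marrow-derived macrophages was sequenced from poly-A stranded libraries, 2 in each of 5 groups. Per the submitters' processing notes, STAR 2.5.1, R 3.3.0 and mm10 were used. For the counting tool, its use of strand, the annotation and the scaling, nothing is given in the sources used here. Values were deposited by the authors as log2(CPM + 1) in 1 table. Multiplied back, 100% of the values came out as whole reads within 0.1 read, and in reads the libraries held 27398791 to 37559810 in listed genes.

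The log2 values as deposited were fitted with limma 3.58.1 (R 4.3.3, moderated with an intensity trend) over all 10 libraries and 11407 genes whose mean reached 1 CPM, with 5 residual degrees of freedom. Benjamini-Hochberg adjustment was made separately in 9 comparisons, and a gene was called at adjusted p below 0.05. Fold changes on the log2(CPM + 1) scale understate changes of low genes. The alternatives were other scalings, pseudocounts and filters, voom on the recovered reads, each library left out, library number as a block, and correction of each library for transcript length and GC content with natural splines of 5 degrees of freedom each (GENCODE M21 transcripts, 11014 tested genes).

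The 40 genes and the wider lists were chosen with earlier results of these data known. Values in every library are given for genes called against control whose libraries did not overlap. Mean CPM per kb divides by the length of the GENCODE transcript chosen for a gene. A transcript tagged as principal was taken first, then a protein-coding one, then the longest. The length and GC correction used the same lengths, so corrected values depend on that choice, as for Cdk1 with 4375 nt. Motifs were read from RefSeq promoter windows (GRCm38.p6). The labels do not say that library numbers mark shared cultures, and no comparison was paired.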

Additional observations from a re-analysis of the deposited data

Results flagged for a closer look

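The change between 1 h and 3 h differed between the ligands for Mki67, by -0.44 on the log2 scale (AmTARS minus Pam3CSK4, SE 0.11, limma adjusted p = 0.0149). After length and GC correction the difference was -0.39 (adjusted p = 0.00567). Both AmTARS libraries at 3 h and both at 1 h held 19.2 to 21.1 CPM, whereas with Pam3CSK4 it was 31.4 and 28.4 CPM at 3 h against 20.4 and 22.9 CPM at 1 h. The replication genes Mcm6 and Pcna differed the other way after correction. The corrected difference was 0.26 for Mcm6 (limma adjusted p = 0.0309) and 0.22 for Pcna (limma adjusted p = 0.0164). As deposited, neither passed, at 0.26 (adjusted p = 0.0723) and 0.20 (adjusted p = 0.0645). With library number as a block, 0 of the 40 genes passed as deposited.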

How the results depend on the processing

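Of 360 gene values, 360 kept their side of the threshold with no filter and with a pseudocount of 0.25. The number was 358 with a pseudocount of 5 and with voom, and 321 with length and GC correction. Values called in both fits kept their direction too, while values called in neither were counted whatever their direction. Cenpf with AmTARS at 1 h was among the latter, at -0.16 as deposited and 0.18 corrected. With total scaling, 6 of the 40 genes were called against control after 1 h of AmTARS, and 6 after 3 h. Of all genes 4484 and 4213 passed there, against 4415 and 4186 in the main fit. The counts were 6, 4 and 5 for AmTARS at 1 h and 3 h and Pam3CSK4 at 1 h with length and GC correction, whose own construction removes the length trend. All-gene calls were 1586, 2056 and 2526 in these fits. For AmTARS against Pam3CSK4 at 3 h it was 2 with no intensity trend and 3 with the compared groups fitted alone. The difference of time changes was called for 2 genes with total scaling, 3 with length and GC correction, 0 with no intensity trend and 2 with quantile normalization. Elsewhere the cause was not tested. A count given here without all-gene calls beside it does not show a change particular to the 40 genes. With library number as a replicate block, 4 genes were called for AmTARS at 3 h, 3 for AmTARS against Pam3CSK4 at 3 h and 0 for the difference of time changes. For AmTARS at 3 h, all-gene calls fell under the block too, from 4186 to 2017. The replicate block with length and GC correction gave 7, 2, 3 and 2 for AmTARS at 1 h, AmTARS at 3 h, Pam3CSK4 at 1 h and the difference of time changes. All-gene calls were 1687, 898 and 1270 for AmTARS at 1 h, AmTARS at 3 h and Pam3CSK4 at 1 h. Deviations of same-numbered libraries correlated at -0.038, -0.179, 0.204 and 0.117 in the 4 pairs of groups with 2 shared numbers, which does not settle whether they were paired. Leaving out 1 library at a time, counts ranged between 5 and 13 for AmTARS at 1 h, 4 and 10 for AmTARS at 3 h, 7 and 14 for Pam3CSK4 at 1 h, and 7 and 12 for Pam3CSK4 at 3 h. They ranged between 2 and 6 for AmTARS against Pam3CSK4 at 3 h, 4 and 7 for Pam3CSK4 at 3 h against 1 h and 0 and 2 for the difference of time changes, and stayed at 0 for the ligands at 1 h and for AmTARS over time. The lone library was then assumed to vary like the other groups. Corrected and without AmTARS 1 h library 3, settings added after the data were seen, 0 genes were called for AmTARS at 1 h and 3 for the difference of time changes. Corrected and without Pam3CSK4 3 h library 3, it was 5 for Pam3CSK4 at 3 h, 3 for AmTARS against it and 2 for the difference of time changes, and without its library 2 the last was 6. Some values called in the main fit changed direction, and uncalled values that did so are not listed. After correction the log2 fold change turned to 0.0408 for Mki67 with AmTARS at 1 h (0.0408 also with the block). It turned to 0.0037 for Mki67 with AmTARS at 3 h, and to -0.0052 for Pcna and 0.0106 for Cenpe with Pam3CSK4 at 1 h. For Birc5 with AmTARS at 1 h it turned to -0.0584 when AmTARS 1 h library 3 was left out too.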

Other observations

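A list of p53 target and growth arrest genes, not all of which act to hold the division cycle, moved in both directions. Of 20 tested genes, 8 rose and 3 fell with AmTARS at 1 h, again 8 and 3 at 3 h, 11 rose and 3 fell with Pam3CSK4 at 1 h, and 8 rose and 4 fell at 3 h, where 18.9% and 19.8%, 18.8% and 17.9%, 23.9% and 24.8%, and 24.7% and 24.2% of all genes rose and fell. After length and GC correction 2 rose and 1 fell, 3 rose and 1 fell, 6 rose and 2 fell, and 9 rose and 5 fell, in the same order. The corrected all-gene shares were 8.22% and 6.18%, 10.9% and 7.79%, 11.6% and 11.3%, and 20.7% and 21.3%. With Pam3CSK4 at 3 h the log2 fold change against control was 0.83 (adjusted p = 2.42e-07) for Gadd45a and 0.78 (adjusted p = 1.29e-09) for Gadd45b, genes of stress sensors that bind CDK1 or PCNA, and -0.76 (adjusted p = 7.37e-09) for Sesn1, the gene of a stress-induced inhibitor of mTORC1 (limma). At 3 h the values with AmTARS against Pam3CSK4 were -0.61 (adjusted p = 3.5e-05), -0.62 (adjusted p = 8.22e-08) and 0.74 (adjusted p = 2.65e-08) for these 3 genes. Corrected, these 6 values kept their sign and passed. Of the 20 genes, 3 were higher and 6 lower with AmTARS at that time, against 8.04% and 9.08% of all genes. Corrected, 3 were higher and 7 lower, against 11.2% and 10.8%.

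At 1 h, where none of the 40 division genes differed between the ligands, Btg2, an antiproliferative gene, was lower with AmTARS than with Pam3CSK4, at -0.31 (adjusted p = 0.00827) in limma, corrected -0.31 (adjusted p = 0.000961). Its relative Btg1 rose with AmTARS at 3 h against 1 h, at 0.20 (adjusted p = 0.0478), and did not pass after correction, at 0.18 (adjusted p = 0.0534). Bax, the gene of a proapoptotic p53 target, was at 0.41 (adjusted p = 1.43e-05) with AmTARS at 1 h against control as deposited, and at 0.072 (adjusted p = 0.236) after correction, which ended that call.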
